A study of Mus musculus with 135 samples.

Results

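H3K4me3 at the promoters of potassium channel genes was compared across cell types and mouse strains. The genes were chosen by name: all protein-coding autosomal genes of the GENCODE M21 annotation whose symbol begins with Kcn, which are 92 of 20807 protein-coding autosomal genes (2 more lie on the X chromosome and were left out). A peak within 1 kb of an annotated transcription start site of a gene was called a promoter peak of that gene. The rule uses the name of a gene and none of its values. The mice were C57BL/6J (B6), DBA/2J (D2), their F1 hybrid and BXD lines, which are inbred mosaics of the B6 and D2 genomes, and neither an engineered allele nor a treatment is labelled. Germ cells, from a crude isolation of male mice 14 days post-partum, came from F1 (4 libraries), B6 (3), D2 (3) and 61 BXD strains (69 libraries). Female mice 8 weeks old gave the cardiomyocytes and the hepatocytes, and each of the strains BXD75, BXD87, B6 and D2 has 3 libraries per cell type. Embryonic stem cell lines, derived from embryos of day 3.5, numbered 3 for B6, 3 for D2, 5 for BXD75 and 5 for BXD87, and the line was the replicate. The labels do not say which libraries of the other cell types came from separate animals, so p values measure only the spread between these samples.

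Potassium channels let potassium ions leave or enter a cell and so set its resting potential and end its action potentials. Voltage-gated channels open on depolarisation, inward rectifiers hold the resting potential, tandem-pore channels carry leak currents, and calcium-activated channels link the membrane to calcium inside the cell. Modifier subunits form no channel alone and change the gating of voltage-gated partners, and accessory subunits bind the pore-forming ones. In the heart these channels repolarise the action potential, whereas hepatocytes are not electrically excitable. H3K4me3, trimethylated lysine 4 of histone H3, marks the starts of active and of poised genes.

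The sequence before the start is shown for 6 of these genes, because each carries a result given further on. Kcnj2 had a peak in all 4 cell types, Kcng3 and Kcnf1 differed between the founders in stem cells, Kcnk12 in cardiomyocytes and Kcnab1 in germ cells, and Kcnj13 had no peak in the lists used here. Each is the 250 bases before the start in the RefSeq promoter table (build GRCm38.p6), 5′ to 3′ on the strand of the gene, and capitals mark CG dinucleotides. In genome order of the plus strand the windows are chr11:111065914-111066163 (plus) for Kcnj2, chr17:83631896-83632145 (minus) for Kcng3, chr17:87797995-87798244 (minus) for Kcnk12, chr12:17176889-17177138 (minus) for Kcnf1, chr3:65108764-65109013 (plus) for Kcnab1 and chr1:87394730-87394979 (minus) for Kcnj13.
Kcnj2: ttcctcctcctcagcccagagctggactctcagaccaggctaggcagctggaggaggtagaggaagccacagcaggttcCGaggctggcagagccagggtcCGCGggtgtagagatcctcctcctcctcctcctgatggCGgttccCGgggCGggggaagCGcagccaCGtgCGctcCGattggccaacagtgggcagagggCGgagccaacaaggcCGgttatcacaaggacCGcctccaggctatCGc
Kcng3: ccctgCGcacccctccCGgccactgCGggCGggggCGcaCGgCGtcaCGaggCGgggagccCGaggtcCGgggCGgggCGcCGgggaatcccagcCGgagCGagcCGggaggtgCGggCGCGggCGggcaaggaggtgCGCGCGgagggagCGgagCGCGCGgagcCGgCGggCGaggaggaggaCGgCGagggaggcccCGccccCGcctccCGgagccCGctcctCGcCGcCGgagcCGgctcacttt
Kcnk12: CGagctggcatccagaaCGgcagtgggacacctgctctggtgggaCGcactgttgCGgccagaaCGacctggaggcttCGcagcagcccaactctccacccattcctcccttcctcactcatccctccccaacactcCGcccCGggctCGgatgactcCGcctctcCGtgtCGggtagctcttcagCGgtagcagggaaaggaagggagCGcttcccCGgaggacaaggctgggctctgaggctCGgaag
Kcnf1: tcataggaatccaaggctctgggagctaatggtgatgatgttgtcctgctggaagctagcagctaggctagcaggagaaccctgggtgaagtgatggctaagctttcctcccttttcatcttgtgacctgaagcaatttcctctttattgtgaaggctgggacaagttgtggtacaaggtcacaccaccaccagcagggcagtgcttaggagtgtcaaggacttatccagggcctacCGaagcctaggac
Kcnab1: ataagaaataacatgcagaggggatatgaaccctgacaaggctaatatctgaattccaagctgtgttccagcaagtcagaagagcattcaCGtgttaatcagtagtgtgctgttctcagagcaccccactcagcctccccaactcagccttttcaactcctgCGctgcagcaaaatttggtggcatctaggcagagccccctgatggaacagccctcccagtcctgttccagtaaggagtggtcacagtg
Kcnj13: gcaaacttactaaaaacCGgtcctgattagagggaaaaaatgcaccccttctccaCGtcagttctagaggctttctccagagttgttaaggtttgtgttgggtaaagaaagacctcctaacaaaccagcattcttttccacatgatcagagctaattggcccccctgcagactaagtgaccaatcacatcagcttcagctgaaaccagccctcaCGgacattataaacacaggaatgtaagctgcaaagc
The Kcng3 window held 41 CG dinucleotides, Kcnk12 16, Kcnj2 14, Kcnj13 3, Kcnab1 2 and Kcnf1 1, against a median of 11 over 15683 windows of protein-coding genes. Marked promoters among the 6 thus held both many and few CG. The word TATAAA, searched on both strands, was found in the Kcnj13 window, 29 bases before the start, and in 1876 of the 15683 windows of the same length. RefSeq windows matched 68 of the 92 genes, too few for a comparison of base composition over the whole set.

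Peaks held 1.87 to 31.4 M (mega) reads per library in germ cells, 13.8 to 20.2 in stem cells, 2.62 to 12.8 in cardiomyocytes and 8.95 to 25.2 in hepatocytes. Levels are CPM (read counts scaled to the normalised library size, which covers reads in peaks), scaled within each cell type separately, and means are given ± SD. Markers of the labelled cell type had a promoter peak for 9 of 10 germ cell genes, 7 of 10 stem cell genes, 8 of 10 cardiomyocyte genes and 9 of 10 hepatocyte genes. The defining markers Pou5f1, Nanog and Tdgf1 had no peak in the stem cell list, nor Myh6 and Tnnt2 in the cardiomyocyte list. Peaks are numbered along the genome in these lists, and 5.92% (hepatocytes) to 10.4% (cardiomyocytes) of the numbers were not among those analysed here. A gene without a listed peak is therefore not shown to lack the mark.

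Most potassium channel genes had a promoter peak in germ and stem cells, 54.3% in cardiomyocytes, and few in hepatocytes. Germ cells had a peak at 76 of 92 genes (82.6%), stem cells at 76 (82.6%), cardiomyocytes at 50 and hepatocytes at 12 (13.0%). Over all protein-coding autosomal genes these shares were 69.9%, 68.0%, 60.0% and 57.2%. Hepatocytes had the lowest share in both sets, and the range over cell types was wider among channel genes. Among genes without a peak, some had a peak number missing between the nearest listed peaks on either side of the start. These were 3 of 16 in germ cells, 3 of 16 in stem cells, 6 of 42 in cardiomyocytes and 5 of 80 in hepatocytes. Where between those neighbours the missing peak lay is not known.

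**Figure D1:**
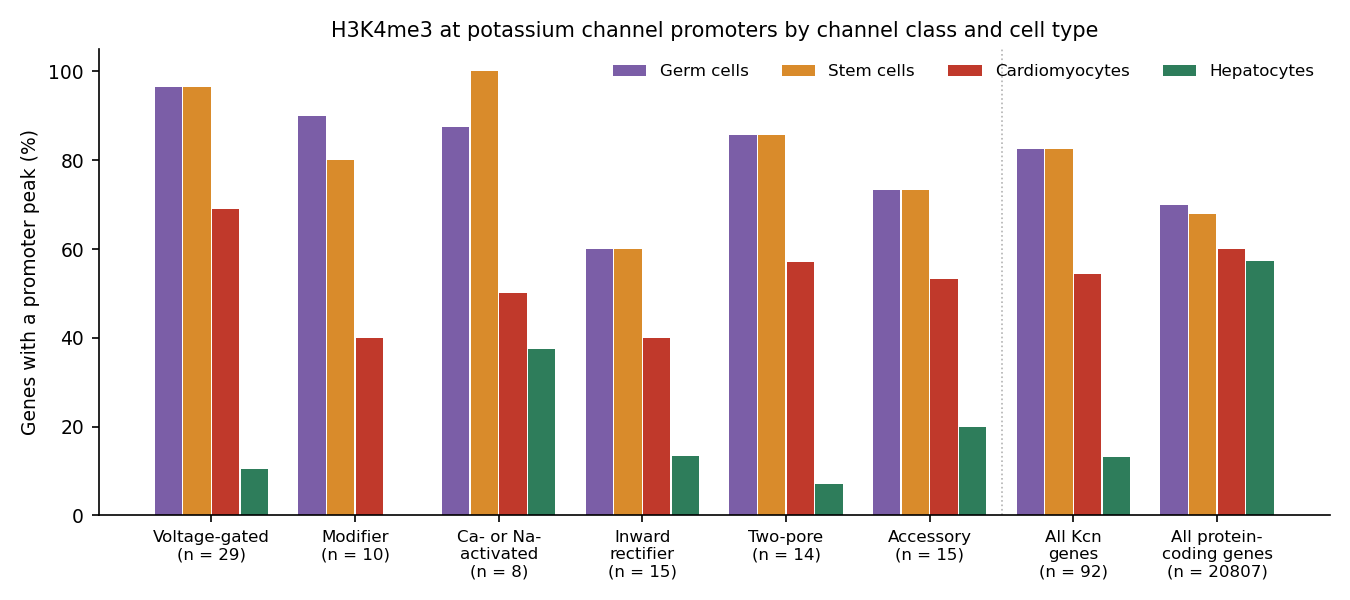
Percent of genes with a promoter peak (vertical axis) for each class of potassium channel gene, for all 92 Kcn genes and for all 20807 protein-coding autosomal genes, with a bar for each cell type. The hepatocyte bar is the lowest in every channel class and is 0 for modifier subunits, whereas it is near the cardiomyocyte bar over all genes.

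The class of channel went with the share of marked genes. Of 29 voltage-gated genes 28 had a peak in germ cells, 28 in stem cells, 20 in cardiomyocytes and 3 in hepatocytes, Kcna7 and Kcnh3 among them. Of 15 inward rectifiers 9, 9, 6 and 2 did in the same order of cell types, the lowest share of the larger classes in germ and stem cells. Of 14 tandem-pore genes 12, 12, 8 and 1 had a peak, the hepatocyte one being Kcnk5, a channel sensitive to external acid. Of 8 calcium- or sodium-activated genes 7, 8, 4 and 3 had one, of 10 modifier genes 9, 8, 4 and 0, and of 15 accessory genes 11, 11, 8 and 3. These are counts without a test, since genes are not replicates.

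Combinations of cell types were uneven. A peak in germ cells, stem cells and cardiomyocytes but not hepatocytes was the commonest state, with 37 genes, and 23 had one in germ and stem cells alone. Only 8 genes had a peak in all 4 cell types, among them Kcna7, Kcnab3, Kcnh3, Kcnj2, Kcnk5, Kcnn1 and Kcnn2. Another 8 had none: Kcna10, Kcne2, Kcnj1, Kcnj9, Kcnj13, Kcnj15, Kcnmb1 and Kcnrg. Kcnj1 is known for potassium secretion in the kidney and Kcnmb1 for smooth muscle, tissues that are not among the samples. A peak number was missing between the listed peaks on either side of the start of Kcnj13 in germ cells and of Kcnj9 in cardiomyocytes.

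A peak in a single cell type was listed for 10 genes. Germ cells alone had Kcnv2 (15.9 CPM), a modifier subunit of photoreceptors, Kcnj11 (15.7 CPM), the pore of ATP-sensitive channels, Kcnj16 (10.4 CPM) and Kcnk18 (6.84 CPM). For Kcnj11 a peak number was missing between the listed peaks on either side of its start in stem cells and in cardiomyocytes. Stem cells alone had Kcnj14 (5.86 CPM), Kcnk16 (4.69 CPM), Kcnk7 (4.65 CPM) and Kcnn4 (3.99 CPM), and those of Kcnj14, Kcnk7 and Kcnn4 were found on the second genome alone. Cardiomyocytes alone had Kcng4 (6.13 CPM), at a peak found on the reference genome alone, and hepatocytes alone Kcnmb3 (6.89 CPM). Kcnu1, the pore of the potassium channel of sperm, had peaks in the germ and stem cell lists alone. At its second promoter, inside the gene and 66.7 kb from the first, it stood at 13.6 CPM in germ cells and 20.2 CPM in stem cells. The first Kcnu1 promoter had a peak in stem cells alone, of 146 CPM and 11.3 kb, which is also the promoter of Ash2l. That peak (chr8:25838293-25849610, mm10) ended before the Kcnu1 start at 25849623 and was counted through the 1 kb window. Its level cannot be assigned to Kcnu1, and its absence elsewhere can reflect a narrower Ash2l peak.

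Per kb of peak, channel promoters stood below promoters in general in every cell type. Their median was 5.69 CPM per kb in germ cells (90 peaks), 5.37 in stem cells (88), 7.65 in cardiomyocytes (52) and 7.53 in hepatocytes (13), against 8.51, 6.41, 10.8 and 9.09 for all promoter peaks. Median widths were 2.76, 2.69, 3.61 and 3.04 kb, against 2.74, 3.27, 4.13 and 5.69 kb. The densest channel peaks were often shared with a neighbour: Kcnab3, an accessory subunit, stood at 18.5 CPM per kb in germ cells in a peak that is also the promoter of Cntrob and Trappc1. Of the channel peaks 19 of 90 in germ cells, 16 of 88 in stem cells, 17 of 52 in cardiomyocytes and 4 of 13 in hepatocytes lay at the start of another gene as well, and their level cannot be assigned to 1 of the genes. Peaks of channel genes alone that were dense were Kcnj2, with 13.9 CPM per kb in germ cells and 13.8 in cardiomyocytes, Kcnk5, with 15.9 in hepatocytes, Kcns3, with 10.1 in stem cells, and Kcnd2, with 12.1 in cardiomyocytes.

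Some genes were marked at different starts in different cell types. Of 84 genes with a peak 70 had 1 marked promoter, 13 had 2 and Kcnip4, which binds voltage-gated channels, had 4. Kcnn2 encodes a small-conductance calcium-activated channel found in heart and brain. Its first promoter stood at 119 CPM in cardiomyocytes, 14.0 in germ cells and 11.9 in stem cells, and had no listed peak in hepatocytes. Its second promoter, 292 kb away and shared with the transcript AC121957.1, stood at 286 CPM in hepatocytes, where the peak was 24.2 kb wide, against 63.3 CPM in germ cells, 57.9 in stem cells and 52.1 in cardiomyocytes. The strongest Kcnn2 start was thus a different one in cardiomyocytes and in the other 3 cell types. Kcnj6, a G-protein-gated inward rectifier of neurons, stood at 13.7 CPM in germ cells and 6.1387 in stem cells at its first promoter. At its second, 142 kb away, it stood at 2.01 CPM in germ cells and 29.8 in stem cells. Of the 4 Kcnip4 promoters 2 had a peak in germ cells alone, at 17.8 and 11.1 CPM.

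Channels known to shape the cardiac action potential were taken as a list of 16 genes, drawn up with earlier results of these data known. Their peaks were wider, and higher in CPM, in cardiomyocytes than elsewhere. Of the 16 genes 15 had a peak in cardiomyocytes, with a median of 85.6 CPM and of 9.10 kb. Germ cells and stem cells also had 15, with medians of 13.2 CPM and 2.96 kb in germ cells and 11.5 CPM and 3.01 kb in stem cells, and hepatocytes had 2, Kcnj2 at 25.7 CPM and Kcnip2 at 4.69 CPM. The other 35 channel genes marked in cardiomyocytes had a median of 21.6 CPM and 2.81 kb. The cardiomyocyte peak was wider than the germ cell peak in 14 of 14 genes of the list and wider than the stem cell peak in 14 of 15, Kcnip2 being the exception. Over all channel genes with a peak in both cell types, these 14 included, it was wider than in germ cells in 25 of 47. Levels across cell types were each scaled within their own cell type, and a wider peak collects more reads. The scale covered 23809 listed peaks in cardiomyocytes, 67114 in germ cells, 67192 in stem cells and 29138 in hepatocytes. Where fewer peaks share the total, each holds more CPM, so CPM is not an equal scale between cell types.

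Among leak channels, Kcnk3 (chr5:30587312-30619986, mm10) had a peak of 32.7 kb in cardiomyocytes, which ran from before its start through most of the gene, against 1.74 kb in germ cells and 1.19 kb in stem cells. Its level was 198 CPM in cardiomyocytes, 7.72 in germ cells and 4.24 in stem cells. The delayed rectifier genes Kcnh2 and Kcnq1, both known for inherited long QT syndrome, had peaks of 31.1 kb (235 CPM) and 21.4 kb (191 CPM) in cardiomyocytes. Kcnh2 was also wide in germ cells, at 6.80 kb, whereas Kcnq1 was 2.01 kb wide there. Of the inward rectifiers, Kcnj5 (15.8 kb), which with Kcnj3 (9.10 kb) forms the channel opened by acetylcholine in atrial muscle, Kcnj2 (12.5 kb) and Kcnj12 (12.4 kb), which hold the resting potential, were all wide. Kcnd2 and Kcnd3, the transient outward channels, stood at 66.8 and 55.7 CPM in cardiomyocytes and at 41.4 and 49.4 CPM in germ cells, and were thus closer between these cell types than the other channels above. Kcnj8 (24.6 CPM), Kcna4 (26.996 CPM) and Kcne1 (31.5 CPM) were the lowest of the list in cardiomyocytes.

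**Figure D2:**
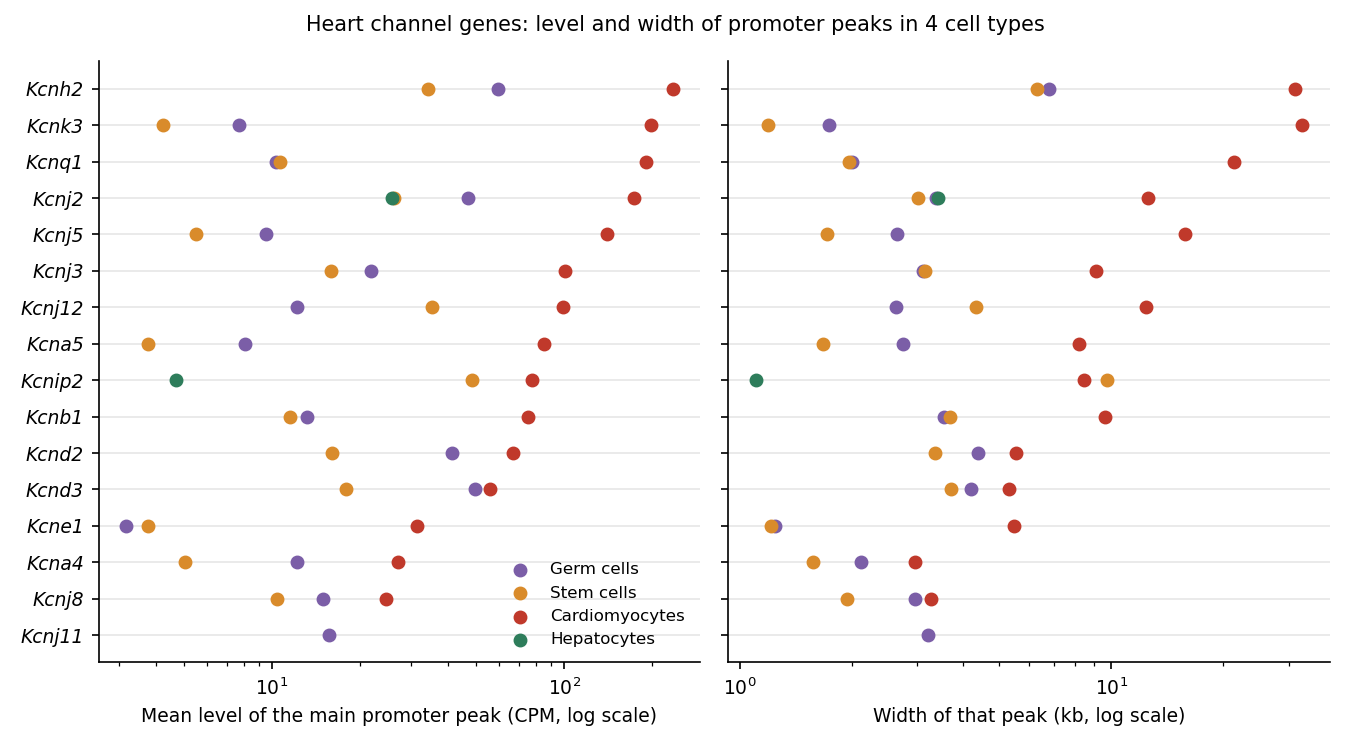
Mean level in CPM (left panel, log scale) and width in kb (right panel, log scale) of the main promoter peak of the 16 heart channel genes, ordered by cardiomyocyte level, with a point for each cell type in which the peak is listed. The cardiomyocyte point is furthest right for every gene with one in the left panel, and in the right panel for every gene except Kcnip2.

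In cardiomyocytes of the founders, 4 heart channels were higher in B6 than in D2 and 4 weakly marked channels were lower. Of 52 channel peaks tested 9 (5 higher, 4 lower in B6) passed, where 8.51% of all 12920 promoter peaks did (5.43% higher, 3.07% lower). Kcnk3 had 203, 259 and 237 CPM in B6 and 97.4, 99.99 and 94.1 CPM in D2, a log2 difference of 1.26 (SE 0.13, edgeR adjusted p = 3.8e-05). Every B6 library was above every D2 library. Kcnj2 had 195, 151 and 197 CPM in B6 and 101, 83.5 and 86.2 CPM in D2, a difference of 1.01 (SE 0.12). Kcnj5 had 162, 139 and 157 CPM in B6 and 86.4, 82.6 and 90.3 CPM in D2, a difference of 0.82 (SE 0.10), and its partner Kcnj3 had 113, 97.2 and 111 CPM in B6 and 70.7, 62.998 and 61.2 CPM in D2, a difference of 0.72 (SE 0.09). None of these 3 genes overlapped between the founders. Kcng2, a modifier subunit, stood at 120.1 ± 15.0 CPM in B6 and 89.6 ± 6.3 CPM in D2 (n = 3 each), a difference of 0.43 (SE 0.11, edgeR adjusted p = 0.030), and its call was lost without B6 library 3 or D2 library 1 or 2.

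Lower in B6 was Kcnk12 (chr17:87796962-87799183, mm10), a tandem-pore gene, with 4.97, 11.4 and 4.60 CPM in B6 and 16.2, 29.8 and 25.3 CPM in D2, a log2 difference of -1.78 (SE 0.42, edgeR adjusted p = 0.024). B6 library 2 lay nearest to D2. Kcnmb4, a subunit of the large-conductance calcium-activated channel, stood at 11.6 ± 4.2 CPM in B6 and 27.4 ± 3.2 CPM in D2 (n = 3 each), a difference of -1.24. The Kcnmb4 peak is among the 14 of 52 cardiomyocyte channel peaks found on the reference genome alone. Kcnk4, a mechanosensitive leak channel, stood at 11.6 ± 3.8 CPM in B6 and 25.2 ± 0.92 CPM in D2, a difference of -1.13. The weaker promoter of Kcnn1, a small-conductance calcium-activated channel, stood at 20.1 ± 5.05 CPM in B6 and 34.7 ± 1.8 CPM in D2, a difference of -0.79. None of these 4 overlapped between the founders, and each call was lost when B6 library 1 or 3 was left out.

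**Figure D3:**
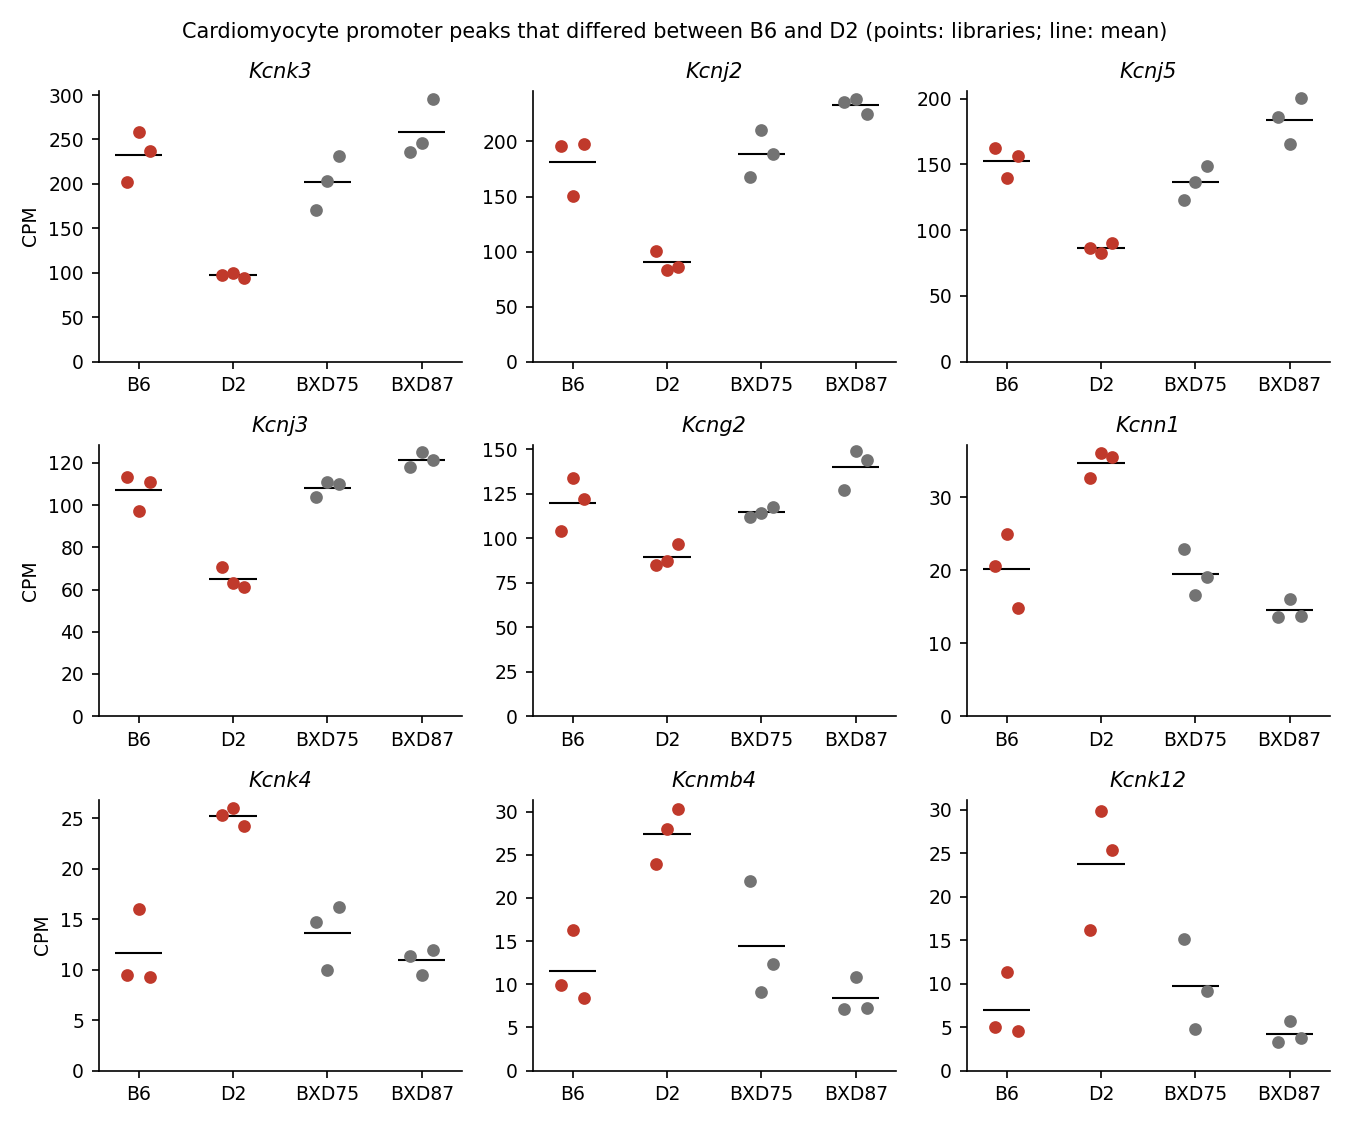
CPM of the 9 channel promoter peaks called between B6 and D2 in cardiomyocytes, with a point for each library of B6, D2, BXD75 and BXD87 and a line at the mean of each strain. D2 is the lowest strain in the 5 genes that were higher in B6 and the highest in the 4 that were lower.

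Of the 15 heart list peaks 4 were higher and 0 lower, with a median log2 difference of 0.14, and of the 37 other peaks 1 was higher and 4 were lower, with a median of -0.70 and 34 below 0. The strong heart channels Kcnh2 and Kcnq1 were not called. Kcnh2 had 202, 285 and 209 CPM in B6 and 248, 262 and 224 CPM in D2, and the founders overlapped. Kcnq1 had 179, 220 and 201 CPM in B6 and 157, 168 and 173 CPM in D2. At Kcnq1, a peak found on the reference genome alone, every B6 library was above every D2 library. The count was 25 (6 higher, 19 lower) without B6 library 2 and was 4 or 5 (0 or 1 lower) without B6 library 1 or 3 or D2 library 1 or 2, and 6 without D2 library 3. DESeq2 called 15 (6 higher, 9 lower). Kcnk3, Kcnj2, Kcnj5 and Kcnj3 were called under every left-out library and every other setting tried.

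The founder difference went with the level of the promoter. Of 33 channel peaks under 50 CPM 32 were below 0, with a median log2 difference of -0.72. Of the 6743 promoter peaks of all genes under that level 4626 were below 0, with a median of -0.17. The 19 channel peaks at or above it had a median of 0.01. Summed over the 33 weak peaks, the B6 libraries held 564, 834 and 522 CPM and the D2 libraries 883, 1114 and 1095 CPM. The B6 libraries held 8.34, 6.84 and 8.24 M reads and the D2 libraries, the shallowest, 4.10, 4.04 and 2.62 M reads, and B6 library 2, the shallowest of B6, had the highest weak sum of B6. The part of depth in the result was not tested. With offsets that follow the level, a setting added after the data were seen, 32 of the 33 weak peaks were still below 0, with a median of -0.68, and 7 peaks were called (4 higher, 3 lower).

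**Figure D4:**
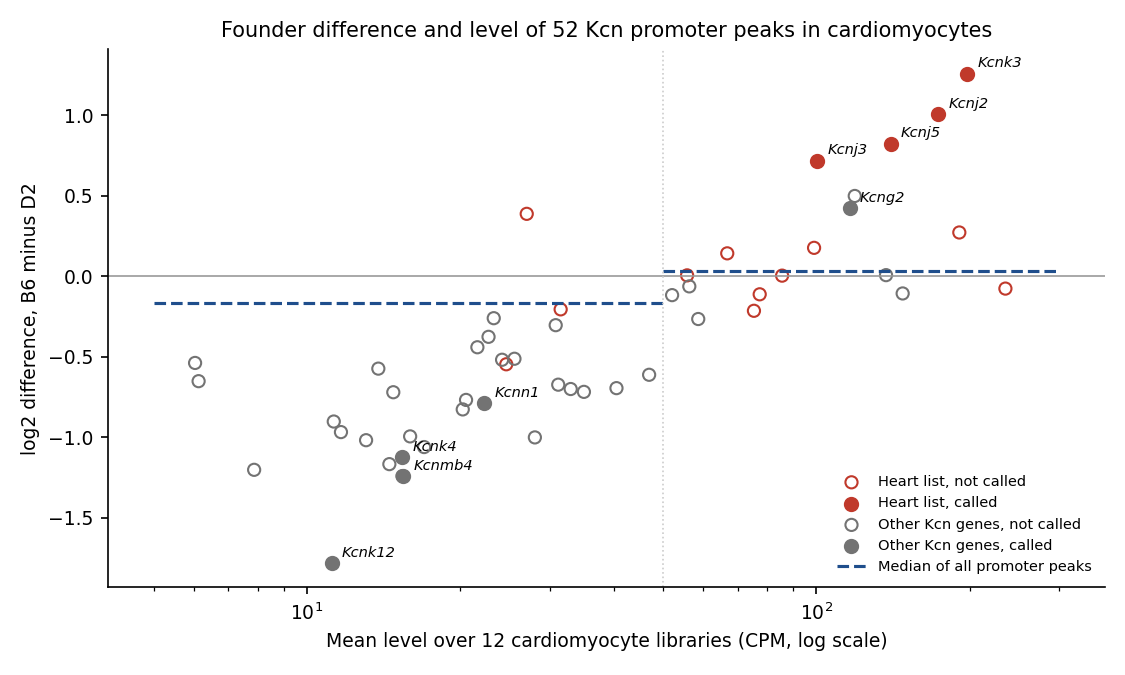
log2 difference between B6 and D2 (vertical axis) against mean level over 12 cardiomyocyte libraries (CPM, log scale) for 52 channel promoter peaks, with heart list genes in red and called peaks filled. Dashed lines give the medians of all promoter peaks below and above 50 CPM. Of the 33 weak channel peaks 32 lie below 0, and the 4 called heart channels lie at the upper right.

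Cardiomyocyte markers moved the same way: of 10 genes 8 had a peak, 4 were higher in B6 (Nkx2-5, Pln, Tbx5 and Tnni3) and 0 lower, and the sum of their levels was 1290.0 to 1471 CPM in B6 and 1000.1 to 1086 CPM in D2. Of 10 markers of other heart cells 7 had a peak, 0 were called, and their sum was 634 to 702 CPM in B6 and 636 to 682 CPM in D2. The part of a different make-up of the cells in the channel differences was not tested. In bulk samples fewer cells of a type and less mark per cell cannot be told apart.

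Between the lines BXD75 and BXD87, cardiomyocytes had 0 of 52 called channel peaks by edgeR, where 0.433% of all promoter peaks passed. At an unadjusted p under 0.05 there were 18 (11 higher, 7 lower), and DESeq2 called 2 lower. These 2 counts have no share of all promoter peaks beside them and are not read as a channel result. Kcnj5 stood at 123.2, 137 and 149 CPM in BXD75 and 186, 165 and 200.3 CPM in BXD87, a log2 difference of -0.43 (SE 0.10, edgeR adjusted p = 0.084). The libraries did not overlap, although the call was missed. Kcne1, the subunit that slows Kcnq1, stood at 25.5 ± 1.7 CPM in BXD75 and 36.6 ± 1.7 CPM in BXD87 (n = 3 each, edgeR adjusted p = 0.10). The Kcne1 peak was found on the reference genome alone. Kcnn2 stood at 117 ± 19 CPM in BXD75 and 162 ± 16 CPM in BXD87 (edgeR adjusted p = 0.18). Of the 33 weak channel peaks 30 were above 0, with a median of 0.55, against 5169 of 6743 and a median of 0.19 for the weak promoter peaks of all genes. The 33 weak channel peaks summed to 873, 459.9 and 582 CPM in BXD75 and 441, 564 and 442 CPM in BXD87, with 7.15 to 7.65 M reads in BXD75 and 10.5 to 12.8 M reads in BXD87. BXD75 libraries 1 and 3 lay above every BXD87 library, and BXD75 library 2 lay within the range of BXD87. Cardiomyocyte markers summed to 1253 to 1394 CPM in BXD75 and 1536 to 1753 CPM in BXD87, with 0 called. Markers of other heart cells summed to 576 to 768 CPM in BXD75 and 574 to 627 CPM in BXD87, with 0 called. The part of the make-up of the cells was not tested.

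In stem cells 14 of 88 channel peaks differed between the founders (6 higher in B6, 8 lower), where 17.3% of all promoter peaks did (8.43% higher, 8.86% lower), so that the share of channel peaks was near the background. Kcnmb2 (chr3:31902096-31904849, mm10), a subunit that inactivates the large-conductance calcium-activated channel, had 15.8, 15.6 and 19.3 CPM in B6 lines and 9.14, 8.94 and 10.02 CPM in D2 lines. The log2 difference was 0.86 (SE 0.15, edgeR adjusted p = 0.00014), and the lines did not overlap. Kcnk5 stood at 125 ± 2.9 CPM in B6 and 93.3 ± 15.5 CPM in D2 (n = 3 each), a difference of 0.42, and the second promoter of Kcnj6 at 29.5 ± 4.9 CPM in B6 and 22.6 ± 2.8 CPM in D2, where the lines overlapped. Kcnip4 at its first promoter (0.57), Kcnh8 (0.34), a voltage-gated gene, and the second promoter of Kcnd3 (0.65), a peak found on the reference genome alone, were the other 3 higher in B6. The calls of Kcnmb2 and Kcnk5 held without any 1 line, and those of Kcnip4, Kcnh8 and the second peaks of Kcnj6 and Kcnd3 were each lost without single lines.

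Lower in B6 stem cells were 2 modifier subunits, an inward rectifier and 4 other genes. Kcng3 had 26.9, 30.0 and 25.1 CPM in B6 lines and 52.6, 49.5 and 53.7 CPM in D2 lines, a log2 difference of -0.93 (SE 0.15, edgeR adjusted p = 4.5e-05). Kcnf1 had 19.7, 20.5 and 19.3 CPM in B6 lines and 39.8, 34.1 and 28.8 CPM in D2 lines, a difference of -0.79 (SE 0.14, edgeR adjusted p = 0.00017). For both genes every B6 line was below every D2 line. Kcnj3 had 12.9, 13.8 and 12.5 CPM in B6 lines and 23.9, 22.1 and 22.7 CPM in D2 lines, a difference of -0.81 (SE 0.12). Kcnip3, a calcium-binding subunit that also acts in the nucleus as a repressor, was lower at both of its promoters, at 9.61, 8.09 and 5.98 CPM in B6 lines against 22.0, 15.9 and 16.8 CPM in D2 lines at the first (-1.23, SE 0.18) and with a log2 difference of -0.39 at the second. Kcnn4, a calcium-activated channel of blood cells, had a log2 difference of -1.40 at a peak found on the second genome alone (2.48 ± 0.54 CPM in B6 and 6.492 ± 2.15 CPM in D2, n = 3 each). Kcna2 (-0.40) and a weak second peak of Kcnh2 (-0.77) were the other calls. These calls of Kcna2 and Kcnh2 and that of the second Kcnip3 promoter were each lost without single lines.

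Between the stem cell lines of BXD75 and BXD87 4 of 88 channel peaks differed (2 higher, 2 lower), where 14.5% of all promoter peaks did (8.60% higher, 5.86% lower). Kcnf1 ranged from 16.0 to 22.3 CPM with a median of 18.9 in the 5 BXD75 lines and from 26.2 to 38.2 CPM with a median of 31.6 in the 5 BXD87 lines, a log2 difference of -0.75 (SE 0.11, edgeR adjusted p = 2.8e-05). The lines of the strains did not overlap, and BXD75 lay near B6 and BXD87 near D2 at this promoter. Kcnip2, a subunit of transient outward channels, stood at 44.0 ± 2.2 CPM in BXD75 and 52.6 ± 3.1 CPM in BXD87, Kcnk5 at 122.6 ± 5.78 CPM in BXD75 and 103 ± 6.9 CPM in BXD87, and Kcnq3, a channel of the neuronal M-current, at 19.7 ± 2.0 CPM in BXD75 and 16.1 ± 0.77 CPM in BXD87 (n = 5 each). The calls of Kcnip2, Kcnk5 and Kcnq3 were each lost without single lines, whereas Kcnf1 was called without any 1 of the 10 lines.

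In germ cells 2 of 90 channel peaks differed between B6 and D2 (0 higher, 2 lower), where 7.51% of all promoter peaks did (3.43% higher, 4.08% lower). Kcnmb2 had 2.218, 3.21 and 2.71 CPM in B6 and 5.39, 5.47 and 3.82 CPM in D2, a log2 difference of -0.85 (SE 0.27, edgeR adjusted p = 0.032). Kcnab1, an accessory subunit of voltage-gated channels, had 9.13, 13.8 and 11.3 CPM in B6 and 15.1, 18.9 and 17.7 CPM in D2, a difference of -0.57 (SE 0.18, edgeR adjusted p = 0.030). The founders did not overlap at either gene. The second promoter of Kcnip3 stood at 34.8 ± 4.9 CPM in B6 and 47.1 ± 6.55 CPM in D2 (n = 3 each, edgeR adjusted p = 0.066). The count was 11 (0 higher, 11 lower) without B6 library B63, 3 (3 higher, 0 lower) without B62, and 0 without B64 or D2 library 2. Germ cell markers summed to 380.5 to 429.9 CPM in B6 and 479.7 to 488 CPM in D2, and markers of Sertoli and Leydig cells to 258 to 373 CPM in B6 and 249 to 298 CPM in D2, with 9 of 10 and 6 of 12 genes measured. Of the Sertoli and Leydig genes Cldn11 and Rhox5 were higher and Hsd3b1 was lower in B6, and their part in the result was not tested.

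The F1 hybrid differed from the mean of its parents at 0 of 90 channel peaks by edgeR, where 0.787% of all promoter peaks passed, at 2 with an unadjusted p under 0.05 and at 0 by DESeq2. Kcne4, an accessory subunit, had 8.19, 10.8, 9.33 and 7.71 CPM in F1, against 9.13, 19.2 and 16.4 CPM in B6 and 9.30, 15.0 and 12.4 CPM in D2 (log2 -0.60, SE 0.19, edgeR adjusted p = 0.19). Its F1 libraries overlapped with those of both parents. Kcnmb2 stood at 3.10 ± 0.58 CPM in F1 (n = 4), against 2.71 ± 0.495 CPM in B6 and 4.89 ± 0.93 CPM in D2 (n = 3 each). The F1 mean lay between those of the parents, whereas the F1 libraries overlapped with B6 and all lay below D2.

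Over the 61 BXD strains, Kcnmb2 ranged in germ cells from 2.21 to 10.7 CPM with a median of 4.85. Its strain median was 5.75 CPM with antibody lot 2746331 (32 strains) and 4.10 CPM with lot 2557645 (28 strains). Kcnj2 ranged from 35.4 to 55.8 CPM with a median of 46.7, and its spread between strains was among the smallest 1.66% of all promoter peaks. With lot means removed, the median SD on the log2 scale was 0.216 for channel peaks and 0.182 for all promoter peaks. Lot itself went with channel levels: 50 of 90 peaks differed between the lots (49 higher with lot 2746331, 1 lower), where 59.5% of all promoter peaks did (27.7% higher, 31.9% lower). Of the 90 peaks 84 were above 0, with a median of 0.13, so that the direction was nearly uniform though small. The lots also differed in depth, with medians of 13.9 and 9.73 M reads. Of 9 germ cell markers tested 0 were higher and 7 lower with lot 2746331. Of 6 markers of Sertoli and Leydig cells 5 were higher and 0 lower. Lot, depth and the make-up of the cells cannot be told apart here.

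In hepatocytes 2 of 13 channel peaks differed between the founders (1 higher in B6, 1 lower), where 9.22% of all promoter peaks did (4.61% higher, 4.61% lower). Kcnj2 (chr11:111064372-111067784, mm10) had 29.0, 25.4 and 28.1 CPM in B6 and 17.0, 22.2 and 18.6 CPM in D2, a log2 difference of 0.51 (SE 0.13, edgeR adjusted p = 0.0088). The direction was that of the cardiomyocytes. The founders did not overlap at Kcnj2, and its call was lost without D2 library 1. The strongest peak, at Kcnn2, stood at 325, 299 and 308 CPM in B6 and 298, 296 and 318 CPM in D2. Markers of other liver cells, 6 of 10 with a peak, summed to 96.4 to 116 CPM in B6 and 151 to 197 CPM in D2, and their part in the result was not tested.

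Between BXD75 and BXD87 hepatocytes 0 of 13 channel peaks were called by edgeR, where 2.33% of all promoter peaks were, and 0 had an unadjusted p under 0.05. Kcnj2 stood at 28.4, 33.4 and 28.0 CPM in BXD75 and 23.1, 27.7 and 27.5 CPM in BXD87 (edgeR adjusted p = 0.65), and these libraries did not overlap.

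Cell types were compared over founder libraries at peaks that overlap by at least 50% of each other. This leaves out genes whose peak widths differ and so most heart channels. The log2 differences between cell types come from fits scaled over the matched peaks alone. They therefore need not equal the ratio of the CPM given, which are scaled within each cell type. Between germ cells and stem cells 51 of 71 matched channel peaks differed (21 higher in germ cells, 30 lower), where 70.8% of all matched promoter peaks did, 41.6% higher and 29.1% lower. With peak width as an offset 47 differed, 10 of them higher in germ cells. These 2 counts have no share of all matched promoter peaks beside them and are not read as a channel result. Kcna3, a channel best known from T lymphocytes, stood at 30.1, 44.4 and 47.7 CPM in B6 germ cells and 41.8, 51.4 and 37.7 CPM in D2 germ cells. In stem cells it stood at 12.8 ± 3.2 CPM in B6 and 12.6 ± 2.8 CPM in D2 (n = 3 each). The germ cell level was the higher in both founders (log2 1.30, SE 0.12, edgeR adjusted p = 3.2e-10). Kcnd3 (1.07), Kcnj10 (1.01), an inward rectifier of glia, Kcnd2 (0.77) and Kcnt1 (0.75), a sodium-activated channel, followed. With the width offset Kcnt1 was not called (0.13, edgeR adjusted p = 0.38), and Kcna3 (0.35), Kcnj10 (0.40) and Kcnd2 (0.39) were called with smaller differences. Lower in germ cells were Kcnmb2 (-2.21), Kcnj12 (-1.95), Kcnk1 (-1.65), a leak channel, Kcnf1 (-1.41) and the first promoter of Kcng1 (-1.17). With the width offset they were called at -1.56, -1.24, -0.91, -0.44 and -0.84 in this order. Germ cell and stem cell libraries also differed in library kit and antibody lot, and these cannot be told apart from cell type.

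Few channel peaks could be matched between other cell types. Of 4 matched between cardiomyocytes and hepatocytes, which share kit, lot, sex and age, 4 were higher in cardiomyocytes, where 82.2% of all matched promoter peaks differed (37.6% higher, 44.6% lower). Kcna7, a voltage-gated channel known from muscle, stood at 23.2 ± 4.6 CPM in B6 and 27.9 ± 3.5 CPM in D2 cardiomyocytes, against 10.4 ± 0.058 CPM in B6 and 9.99 ± 0.56 CPM in D2 hepatocytes (n = 3 each), a log2 difference of 1.51. Kcnab3 (0.68) and the weaker promoter of Kcnn1 (0.64) were among the others. With peak width as an offset the Kcnn1 call was lost (0.02). Of 6 matched between stem cells and hepatocytes 4 differed (3 higher in stem cells, 1 lower), where 82.4% of all did (38.0% higher, 44.4% lower). Kcnj2 (0.79) and Kcnt2 (0.68), a sodium-activated channel, were among those higher, and the weaker promoter of Kcnn1 (-0.47) was lower.

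The founder difference of 5 channel promoters depended on whether the cells were germ or stem cells (4 higher in germ cells, 1 lower), of 71 matched peaks, where 4.12% of all matched promoter peaks did (2.15% higher, 1.97% lower). For Kcng3, germ cells had 45.4, 66.9 and 69.6 CPM in B6 and 53.3, 64.3 and 56.2 CPM in D2, so the founders overlapped, unlike the stem cells above. The difference between cell types in log2 of B6 over D2 was 1.06 (SE 0.17, edgeR adjusted p = 0.00012). Kcnj3 had 14.7, 29.8 and 24.5 CPM in B6 and 18.5, 23.6 and 20.8 CPM in D2 germ cells (1.01, SE 0.22), Kcnf1 10.3, 15.0 and 12.2 CPM in B6 and 12.1, 16.3 and 14.1 CPM in D2 (0.69, SE 0.21) and the first promoter of Kcnip3 6.26, 10.1 and 8.38 CPM in B6 and 6.87, 9.17 and 9.03 CPM in D2 (1.30, SE 0.27). In these 4 genes the founders overlapped in germ cells and were apart in stem cells. Kcnmb2 was lower in B6 than in D2 germ cells and higher in B6 than in D2 stem cells, a difference of -1.68 (SE 0.28, edgeR adjusted p = 0.00012).

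**Figure D5:**
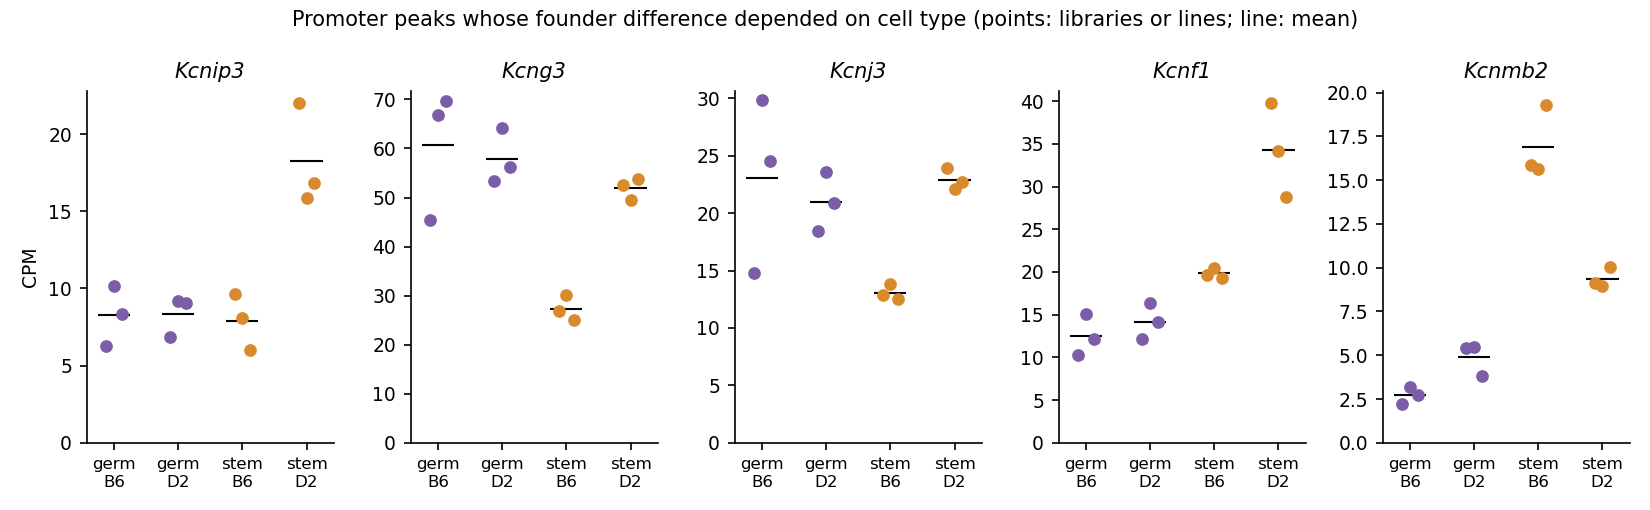
CPM of 5 channel promoter peaks in B6 and D2 germ cells and stem cells, with a point for each library or line and a line at the mean. In Kcnip3, Kcng3, Kcnj3 and Kcnf1 the D2 stem cells stand above the B6 stem cells and the germ cells overlap, and in Kcnmb2 the order of the founders is opposite in the 2 cell types.

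Between stem cells and hepatocytes the founder difference differed at 1 of 6 matched channel peaks, Kcnj2, where 6.55% of all matched promoter peaks did (3.13% higher, 3.43% lower). Kcnj2 had 25.3, 26.2 and 26.5 CPM in B6 and 23.8, 30.8 and 28.0 CPM in D2 stem cells, and the difference of the log2 values was -0.62 (SE 0.17, edgeR adjusted p = 0.032). Between cardiomyocytes and hepatocytes it differed at 0 of 4 by edgeR, where 10.7% of all did, at 1 with an unadjusted p under 0.05 and at 1 by DESeq2. Kcnj2 and the other heart channels were not among those 4. Across cell types Kcnj2 thus stood higher in B6 than in D2 in cardiomyocytes and hepatocytes, and the founders overlapped in stem cells and in germ cells, with 40.3, 51.0 and 46.9 CPM in B6 and 46.8, 46.4 and 53.5 CPM in D2 germ cells.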

How the data were processed

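The deposited tables hold raw read counts at each peak, and the 123 H3K4me3 libraries each have a column. Peak positions (unit other, coordinates) are as the authors' association lists give them, on mm10 per the submitters' processing notes. Those notes name CASAVA 1.8, BWA 0.5.10 and MACS 1.4.2 without a role, and the counting tool and the second genome are not given in the sources used here. The 12 inputs have no column and 0 value columns were left unused. Per the labels' protocols germ cell libraries used the NEXTflex kit and the others the KAPA kit. Antibody lot 2557645 served the germ cells of founders, F1 and 28 BXD strains, and lot 2746331 all other libraries apart from 1 strain with both.

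Members and lists were chosen with earlier results of these data known. Counts were analysed with edgeR 4.0.16 in R 4.3.3: filterByExpr by group, TMM, robust glmQLFit and glmQLFTest, fitted per cell type (germ cells: B6, D2 and F1 together) with Benjamini-Hochberg adjustment over all peaks. Peaks with an adjusted p under 0.05 were called. Shares of all promoter peaks are those of the adjusted edgeR calls of the main fits. Counts by DESeq2, at an unadjusted p or under any other alternative setting have no such share beside them. Repeat libraries of 1 stem cell line were summed. The scripts were tested on simulated data. Alternatives were DESeq2 1.42.0, limma 3.58.1, RLE scaling, a filter of 50 reads, peaks found on both genomes, peaks that overlap a start, 1 bp matching, peak width as an offset, the replicate block and leaving out each replicate. Named were all called peaks (at most 8 per direction, or the 3 smallest p), the 5 most changed per direction between cell types, the 5 densest peaks, peaks of 1 or no cell type, and the heart list. Results of some genes are not reported here. Samples with the same replicate number went together in 8 of 18 pairs in cardiomyocytes and 5 of 18 in hepatocytes (correlation over 0.1), so number was not a block.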

Additional observations from a re-analysis of the deposited data

Results flagged for a closer look

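The founder difference (log2 of B6 over D2) depended on cell type at 6 channel promoters, by the interaction term of edgeR. Between germ cells and stem cells it differed by 1.30 at the first promoter of Kcnip3, 1.06 at Kcng3, 1.01 at Kcnj3, 0.69 at Kcnf1 and -1.68 at Kcnmb2. Between stem cells and hepatocytes it differed by -0.62 at Kcnj2. The Kcnf1 result (edgeR adjusted p = 0.035) was lost in 9 of 12 fits that left out a library or line and the Kcnj2 result in 8 of 12, whereas those of Kcnip3, Kcng3, Kcnj3 and Kcnmb2 held in each. No test of a stray sample was called in the 11 groups of channel values large enough for one.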

How the results depend on the processing

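Of the named peaks' alternatives 866 kept the direction and the side of the threshold, 102 lost it, 5 gained it and 0 turned the sign. Counts of called channel peaks moved as follows. DESeq2 called 15 between the founders and 2 between BXD75 and BXD87 in cardiomyocytes, 7 (5 higher, 2 lower) between these lines in stem cells, and 1 and 2 for the founder difference of cardiomyocytes or stem cells against hepatocytes. With 1 bp matching 9 peaks were called between cardiomyocytes and hepatocytes (7 higher, 2 lower), 9 between stem cells and hepatocytes (7 higher, 2 lower) and 2 for the founder difference of stem cells against hepatocytes, which was also 2 with the first library of each repeated line. In germ cells 0 founder peaks were called with 50 reads required or with peaks of both genomes alone. Leaving out each replicate gave 4 to 25 founder peaks in cardiomyocytes, 9 to 20 in stem cells (9 without B6 line 49), 0 to 11 in germ cells and 0 to 2 in hepatocytes, 0 to 1 for F1, 2 to 6 between the stem cell lines of BXD75 and BXD87, and 0 to 1 and 0 to 2 for the founder difference of cardiomyocytes and of stem cells against hepatocytes. The causes were not tested. With the replicate block 7 founder peaks were called in cardiomyocytes (5 higher, 2 lower) and 2 in hepatocytes, and 0 between the lines in both; replicate numbers did not pair the samples. Germ cell columns of B6 carry no labelled number. The standard error of the founder difference reached 0.51 on the log2 scale in cardiomyocytes.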

Other observations

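Of 23 genes of proteins that work beside potassium channels 21 had a promoter peak tested in germ cells, 19 in stem cells, 18 in cardiomyocytes and 7 in hepatocytes. In cardiomyocytes 2 of 18 differed between the founders (1 higher in B6, 1 lower), where 8.51% of all promoter peaks did, and Hcn2, a pacemaker channel, was lower in B6 than in D2 (log2 -0.80, edgeR adjusted p = 0.0497). In stem cells Dpp6, a subunit of transient outward channels, was lower in B6 than in D2 (-0.41), and Cacna1c, the cardiac calcium channel, was higher in BXD75 than in BXD87 (0.38). These were 1 of 19 in each of the stem cell comparisons, where 17.3% and 14.5% of all promoter peaks differed. Between the antibody lots in germ cells 12 of 21 differed (11 higher with lot 2746331, 1 lower), where 59.5% of all did. Between the founders 0 of 21 differed in germ cells and 0 of 7 in hepatocytes by edgeR, where 7.51% and 9.22% of all promoter peaks did. So few genes cannot show a lower share.

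Over the BXD strains, 1 of the 90 channel peaks in germ cells varied more than 95% of all promoter peaks, a weak second peak of Kcnc2 (0 to 4.37 CPM), found on the reference genome alone.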
